A study of Mus musculus with 11 samples.

Results

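The genes described here were 9 subunits of voltage-gated calcium channels, out of 14905 genes that were present in all 8 deposited tables of single-nucleus RNA sequencing from mouse trigeminal ganglia. They comprised 6 pore-forming alpha1 subunits, Cacna1a, Cacna1b, Cacna1c, Cacna1e, Cacna1h and Cacna1i, and 3 beta subunits, Cacnb2, Cacnb3 and Cacnb4. The genes were chosen by name and their rows were read from every table, so no measured value decided which genes were included. All 9 passed the filter on low counts in each comparison reported below.

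The trigeminal ganglion holds the cell bodies of the sensory neurons that supply the face and head. In this study neuronal nuclei were selected with an antibody to the nuclear protein NeuN from ganglia of uninjured mice and of mice with damage to the nerve or to its target skin, and the authors removed non-neuronal clusters before deposit. The tables held 40359 nuclei. The labels give an age above 6 weeks for all mice, the methods 6 weeks or more at surgery, and males and females were pooled and were not separated in the analysis. The uninjured controls were wildtype C57BL mice (C57BL/6NCrl in the methods, as for the other C57BL groups), profiled once with the 10x platform (nuclei of 10 mice) and once with Drop-seq (16 mice, 4 libraries merged in 1 table). Infraorbital nerve transection (IOT), a spared nerve injury in which superficial branches of the nerve were cut and not ligated, was applied to C57BL mice, whose ganglia were taken on day 2, 7 or 21 (10 mice each) or day 75 (6 mice). Facial injury consisted of cuts in the facial skin of C57BL mice (10 mice), used on day 2 after injury according to the methods. Scratch lesions were wounds that mice of a mixed FVBN/C57BL/129 background had made by chronic scratching (10 mice). Those mice carried Fos-tTA together with tetO-mCherry-2A-Gnaq, which encodes a constitutively active Gq alpha subunit, and no mCherry was detected in their somatosensory neurons. The strain and the transgenes therefore cannot be told apart from the lesions in that library. The facial injury and the scratch lesions are called the milder injuries.

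Each injury condition was 1 library made from pooled mice. The p-values below therefore rest on how differences between groups of nuclei varied from library to library, and not on the spread between animals. Those libraries came from different conditions and were not replicates of 1 condition. The tables held 3178 to 8660 nuclei each, with totals of 7735811 to 22003842 unique molecular identifiers (UMIs, counts of captured molecules) and medians of 1747 to 4178.5 UMIs per nucleus. The IOT day 7 library was the shallowest of the 7 made with 10x, and the Drop-seq control stood apart in platform and depth. All 6 listed sensory neuron genes were detected in every 10x library, among them Snap25 in 60.3 to 92.3% of nuclei and Piezo2 in 62.7 to 91.2%. Between 16 and 92 cell barcodes were shared by each pair of 10x libraries. Nuclei were grouped by clustering in which the 9 subunit genes, the marker genes and the related pathway genes had been withheld, and clusters were named from marker lists. The 9 uninjured classes were C1/2-like (Trpm8 and Foxp2), C3-like (Cdh9 and Fam19a4), C4-like (Nefh and Pvalb), C5-like (Cadps2 and Ntrk2), C6-like (Nefh and Smr2), C7-10-like (Tac1, Calca and Trpa1), C11-like (Nppb and Sst), C12-like (Mrgpra3) and C13-like (Mrgprd). C4-, C5- and C6-like nuclei were taken as large diameter neurons and the other classes as small diameter neurons. A further 1788 nuclei lay in clusters marked by injury genes such as Atf3 and Sox11, in an I1-like state (with large diameter markers such as Ntng1 and Fat3) and an I2-like state (with Gal and Rgs4). Atf3 was detected in 54.3 to 69.5% of these injured nuclei across the 6 injury libraries and in 0.871 to 5.39% of uninjured nuclei across the 7 10x libraries.

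Voltage-gated calcium channels open when the membrane depolarizes and admit calcium, which triggers transmitter release at nerve terminals and shapes firing and gene expression in the cell body. The alpha1 subunit forms the pore and sets the current type. The Cav2 pores Cacna1a (P/Q-type), Cacna1b (N-type) and Cacna1e (R-type) serve transmitter release, the L-type pore Cacna1c couples depolarization to signaling in the soma, and the T-type pores Cacna1h and Cacna1i open near resting potential and set excitability. Beta subunits bind high-voltage-activated pores from the cytoplasm, promote their delivery to the membrane and tune their gating. N-type and T-type channels of sensory neurons have long been studied in relation to pain.

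All 9 genes were located on the mm10 build, with spans from the GENCODE annotation of the same build. The Cav2 pores lie on chromosome 8 at 84388440 to 84640246 on the plus strand (Cacna1a), chromosome 2 at 24603887 to 24763152 on the minus strand (Cacna1b) and chromosome 1 at 154390731 to 154884501 on the minus strand (Cacna1e). Cacna1c spans chromosome 6 from 118587240 to 119196418 on the minus strand. The T-type pores lie on chromosome 17 at 25374285 to 25433783 on the minus strand (Cacna1h) and chromosome 15 at 80287238 to 80398279 on the plus strand (Cacna1i). The beta subunit genes lie on chromosome 2 at 14603088 to 14987908 on the plus strand (Cacnb2), chromosome 15 at 98630840 to 98644529 on the plus strand (Cacnb3) and chromosome 2 at 52428320 to 52676831 on the minus strand (Cacnb4). The authors counted reads from introns as well as exons, so the values cover the whole gene span. Other listed genes, on either strand, overlap 15.6% of the Cacnb2 span and 3.47% of the Cacna1c span. Annotated genes on the same strand overlap 3.03% and 0.262% of these spans. What these overlaps did to the counts was not tested.

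RefSeq promoter windows (GRCm38.p6, from 250 bases before to 50 bases after the start, 300 bases in all) were found for 7 of the 9 genes, with 13 windows in total. Those of 4 genes are shown here because these genes have class-restricted or opposed patterns, described below: Cacna1e and Cacna1i were high in few neuron classes, whereas Cacna1b and Cacnb4 were present in all of them and moved in opposite directions in injured nuclei. Each is written 5′ to 3′ on the strand of the gene, and capitals mark GC boxes (GGGCGG on either strand). The windows are chr1:154725871-154726170 (minus) for Cacna1e, chr15:80286988-80287287 (plus) for Cacna1i, chr2:24763103-24763402 (minus) for Cacna1b and chr2:52676094-52676393 (minus) for Cacnb4.
Cacna1e: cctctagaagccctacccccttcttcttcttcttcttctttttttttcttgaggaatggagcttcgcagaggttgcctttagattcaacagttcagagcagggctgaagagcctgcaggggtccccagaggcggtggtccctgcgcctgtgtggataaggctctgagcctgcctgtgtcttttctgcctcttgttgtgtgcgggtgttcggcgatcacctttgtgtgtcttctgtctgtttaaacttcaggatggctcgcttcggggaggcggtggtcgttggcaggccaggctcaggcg
Cacna1i: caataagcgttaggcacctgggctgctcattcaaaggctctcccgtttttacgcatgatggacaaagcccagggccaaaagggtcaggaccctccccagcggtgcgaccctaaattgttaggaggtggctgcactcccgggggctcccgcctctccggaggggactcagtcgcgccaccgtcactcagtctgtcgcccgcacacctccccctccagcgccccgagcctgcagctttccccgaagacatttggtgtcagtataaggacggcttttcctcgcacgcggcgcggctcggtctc
Cacna1b: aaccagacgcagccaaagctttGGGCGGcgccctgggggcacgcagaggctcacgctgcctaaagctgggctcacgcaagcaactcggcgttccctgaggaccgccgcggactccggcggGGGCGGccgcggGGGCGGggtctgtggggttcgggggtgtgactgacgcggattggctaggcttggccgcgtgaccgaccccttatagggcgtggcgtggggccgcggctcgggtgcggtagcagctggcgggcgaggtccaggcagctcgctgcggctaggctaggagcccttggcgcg
Cacnb4: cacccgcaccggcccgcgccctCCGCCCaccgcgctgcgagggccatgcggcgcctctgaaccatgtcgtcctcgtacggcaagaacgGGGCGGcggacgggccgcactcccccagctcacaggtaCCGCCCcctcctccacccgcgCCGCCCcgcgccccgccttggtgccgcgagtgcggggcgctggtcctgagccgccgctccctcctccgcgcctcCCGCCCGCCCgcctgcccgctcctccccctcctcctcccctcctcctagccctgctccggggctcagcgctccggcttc

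The windows of Cacna1e and Cacna1i held no GC box and had a GC content of 55.3% and 62.7%, and those of Cacna1b and Cacnb4 held 3 and 6 GC boxes with a GC content of 72.3% and 78.3%. The Cacnb4 window is 1 of 3 for that gene, and the other 2 held no GC box, with a GC content of 49.7% and 69.7%. Cacna1c and Cacnb2, not shown, also differed steeply between neuron classes. A Cacna1c window held 6 GC boxes (GC content 81.3%) and a Cacnb2 window 1 (71.7%), and the remaining windows of both genes held 0. A link between GC boxes and class pattern was not tested. Over all 32851 mouse promoter windows of this length, 35.7% held a GC box on either strand, against 6 of the 13 windows of the calcium channel genes. The AP-1 motif TGANTCA, the letters bound by the family to which Atf3 and Jun belong, was found in 0 of the 13 windows and in 7.81% of all windows. The CRE motif TGACGTCA was found in 0 of the 13 and in 1.79% of all windows. Both strands were searched, and a window without the letters says nothing about binding elsewhere.

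Among the Cav2 pores of uninjured nuclei, Cacna1a and Cacna1b were broadly expressed and Cacna1e was restricted. In the summed counts of uninjured nuclei, Cacna1a stood at 605 CPM (the gene's UMIs as a share of all UMIs of the summed nuclei, scaled to 1000000) in the 10x control, 539.5 on day 2, 556 on day 7, 508 on day 21 and 573 on day 75 after IOT, 381 with scratch lesions, 346 with facial injury and 518 in the Drop-seq control. Both milder injury libraries were below the other 6 tables. Cacna1b stood at 411 CPM in the 10x control, 435, 337, 358 and 314 on days 2, 7, 21 and 75, 280.4 with scratch lesions, 254 with facial injury and 307 in the Drop-seq control, with the milder injuries lowest again. Cacna1e, the R-type pore, was at 27.4 CPM in the 10x control, 21.8, 19.7, 21.2 and 17.8 on days 2, 7, 21 and 75, 21.1 with scratch lesions, 20.1 with facial injury and 10.6 with Drop-seq.

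The L-type and T-type pores covered a wider range between genes. Cacna1c was at 615 CPM in the 10x control, 550.4, 551, 435 and 638 on days 2, 7, 21 and 75, 447 with scratch lesions, 355 with facial injury and only 56.5 in the Drop-seq control. Cacna1h was at 51.9 CPM in the 10x control, 30.5, 39.3, 34.5 and 32.1 on days 2, 7, 21 and 75, 42.6 with scratch lesions, 54.9 with facial injury and 29.0 with Drop-seq. Cacna1i was at 7.55 CPM in the 10x control, 3.52, 9.33, 1.54 and 6.72 on days 2, 7, 21 and 75, 7.49 with scratch lesions, 6.10 with facial injury and 3.11 with Drop-seq. The days after IOT formed no steady rise or fall in any of these 3 genes.

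Among the beta subunits, Cacnb4 was counted most in all 8 tables. It stood at 769.8 CPM in the 10x control, 817, 543, 742 and 880.0 on days 2, 7, 21 and 75, 687 with scratch lesions, 589.9 with facial injury and 542 with Drop-seq. Cacnb3 was at 205 CPM in the 10x control, 159.9, 259, 134 and 198 on days 2, 7, 21 and 75, 364 with scratch lesions, 329 with facial injury and 149 with Drop-seq, so that the milder injury libraries were the highest for this gene. Cacnb2 was at 114 CPM in the 10x control, 116, 68.8, 113 and 78.3 on days 2, 7, 21 and 75, 85.3 with scratch lesions, 75.6 with facial injury and 39.6 with Drop-seq. Counts per gene rise with the length of the gene when introns are counted. On a scale of median uninjured CPM per 100 kb of gene span, the levels were 1498 for Cacnb3, 298 for Cacnb4, 214 for Cacna1a, 211 for Cacna1b, 90.3 for Cacna1c, 66.1 for Cacna1h, 22.2 for Cacnb2, 6.05 for Cacna1i and 4.26 for Cacna1e. On that scale the order of levels thus began with Cacnb3, whose span is the shortest of the set.

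Each of the 9 genes differed between neuron classes. Each class was compared with the mean of the other 8 classes by edgeR's quasi-likelihood test with the library as a block, over the 7 10x libraries. Of the 81 pairs of gene and class, 30 were higher and 32 lower at an adjusted p under 0.05, against 20.2% higher and 18.3% lower over all pairs of genes and classes tested. The T-type pores, Cacna1e, Cacna1c and Cacnb2 had the steepest differences, and Cacna1a, Cacna1b and Cacnb3 the shallowest.

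**Figure D1:**
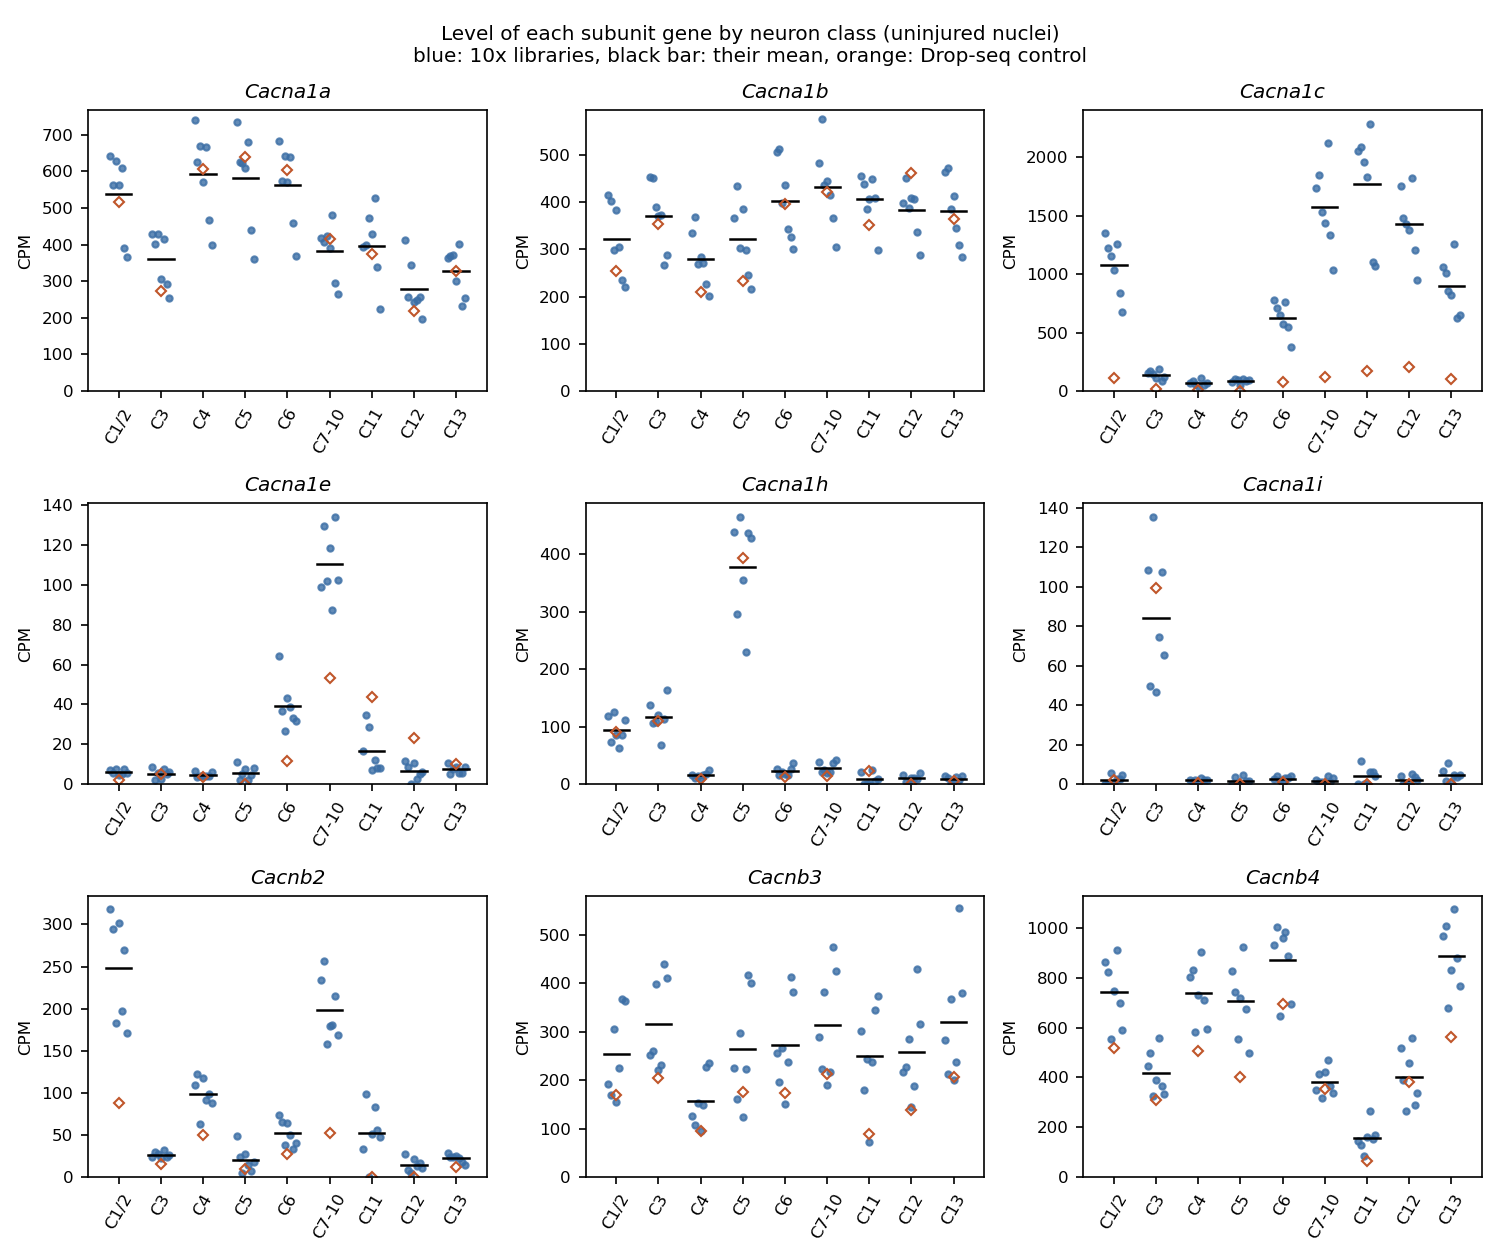
CPM of the 9 genes (vertical axis, 1 panel per gene) in each of the 9 uninjured neuron classes (horizontal axis). Blue points are the 7 10x libraries, black bars their means, and orange diamonds the Drop-seq control. Cacna1i stood highest in C3-like nuclei (mean 84.0 CPM), Cacna1h in C5-like (378) and Cacna1e in C7-10-like (111), and the Drop-seq diamonds for Cacna1c lay far below the blue points.

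Cacna1i, a T-type pore, stood highest in C3-like nuclei, which carry markers of C-fiber low-threshold mechanoreceptors. In C3-like nuclei it was at 109 CPM in the 10x control, 49.8, 135, 46.6 and 74.6 on days 2, 7, 21 and 75 after IOT, 108 with scratch lesions and 65.5 with facial injury, a mean of 84.0 ± 33.7 (SD, n = 7 libraries). The next class, C13-like, averaged 4.55 CPM, 18.5-fold lower, and C3-like was the higher of the pair in 7 of 7 libraries. In the edgeR fit the C3-like difference from the other classes was 4.99 on the log2 scale (SE 0.161, adjusted p 2.81e-46). A UMI of Cacna1i was present in 10.2 to 28.0% of C3-like nuclei and in 0 to 1.44% of C7-10-like nuclei, whose median depth in the 10x control was 2665 UMIs against 2714 in C3-like nuclei. With every nucleus thinned to 1000 UMIs, the C3-like share was 4.80 to 11.9%. The Drop-seq control showed the same highest class, at 99.5 CPM.

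Cacna1h, the other T-type pore, was highest in C5-like nuclei, which express Ntrk2, a receptor marking A-delta low-threshold mechanoreceptors. It reached 439 CPM in C5-like nuclei of the 10x control, 296, 465, 355 and 229 on days 2, 7, 21 and 75, 438 with scratch lesions and 428 with facial injury, a mean of 378 ± 88.4 (SD, n = 7). These values lay above C3-like nuclei (mean 117 ± 29.5) and C1/2-like nuclei (94.8 ± 24.1) in every 10x library, and every other class averaged 28.7 CPM or less. The 3 classes differed from the mean of the others by 4.02, 2.10 and 1.75 on the log2 scale (SE 0.0873, 0.114 and 0.107, edgeR adjusted p 3.34e-60, 1.41e-29 and 9.43e-27). Between 58.3 and 73.4% of C5-like nuclei held a UMI of Cacna1h, against 0.233 to 4.94% of C13-like nuclei, whose 10x control median was 3346 UMIs against 3184 for C5-like nuclei. After thinning to 1000 UMIs the C5-like share was 20.8 to 39.4%.

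Among the 9 classes, Cacna1e averaged highest in C7-10-like nuclei, which express the neuropeptide genes Tac1 and Calca and the noxious-stimulus channels Trpv1 and Trpa1. It was at 99.1 CPM in these nuclei of the 10x control, 129, 102, 119 and 87.5 on days 2, 7, 21 and 75, 134 with scratch lesions and 102 with facial injury. The mean was 111 ± 17.3 CPM (SD, n = 7), with C6-like nuclei next at 39.3 ± 12.3 and C11-like at 16.4 ± 11.05, and the remaining classes at 7.31 or less. The log2 differences were 3.68 for C7-10-like (SE 0.101, edgeR adjusted p 1.51e-51) and 2.08 for C6-like nuclei (SE 0.103, adjusted p 6.00e-33). A UMI of Cacna1e was present in 13.4 to 25.6% of C7-10-like and 6.92 to 19.7% of C6-like nuclei, against 0.559 to 2.79% of C3-like nuclei.

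Within these classes the expression of Cacna1e was uneven. The C7-10-like class held a cluster led by Cartpt and a cluster led by Chrna3, in which the median CPM of Cacna1e over the 7 10x libraries was 138 (119 to 167) and 64.7 (39.1 to 104), the former higher in 7 of 7 libraries. The C6-like class held 3 clusters. The cluster led by Bmpr1b and Cnih3 was at 148 CPM (103 to 235), whereas the clusters led by Smr2 and by Chodl were at 7.89 (4.39 to 15.3) and 6.47 (1.44 to 12.1). The C6-like mean therefore stood for 1 cluster with the R-type pore and 2 clusters near the level of the other classes. Cacnb2 was also higher in the Cartpt than in the Chrna3 cluster in 7 of 7 libraries, and Cacna1c was higher in the Bmpr1b than in the Smr2 cluster and lower in the Chodl than in the Smr2 cluster in 7 of 7. These clusters were defined without the calcium channel genes, and the counts of libraries are given as a description with no test.

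**Figure D2:**
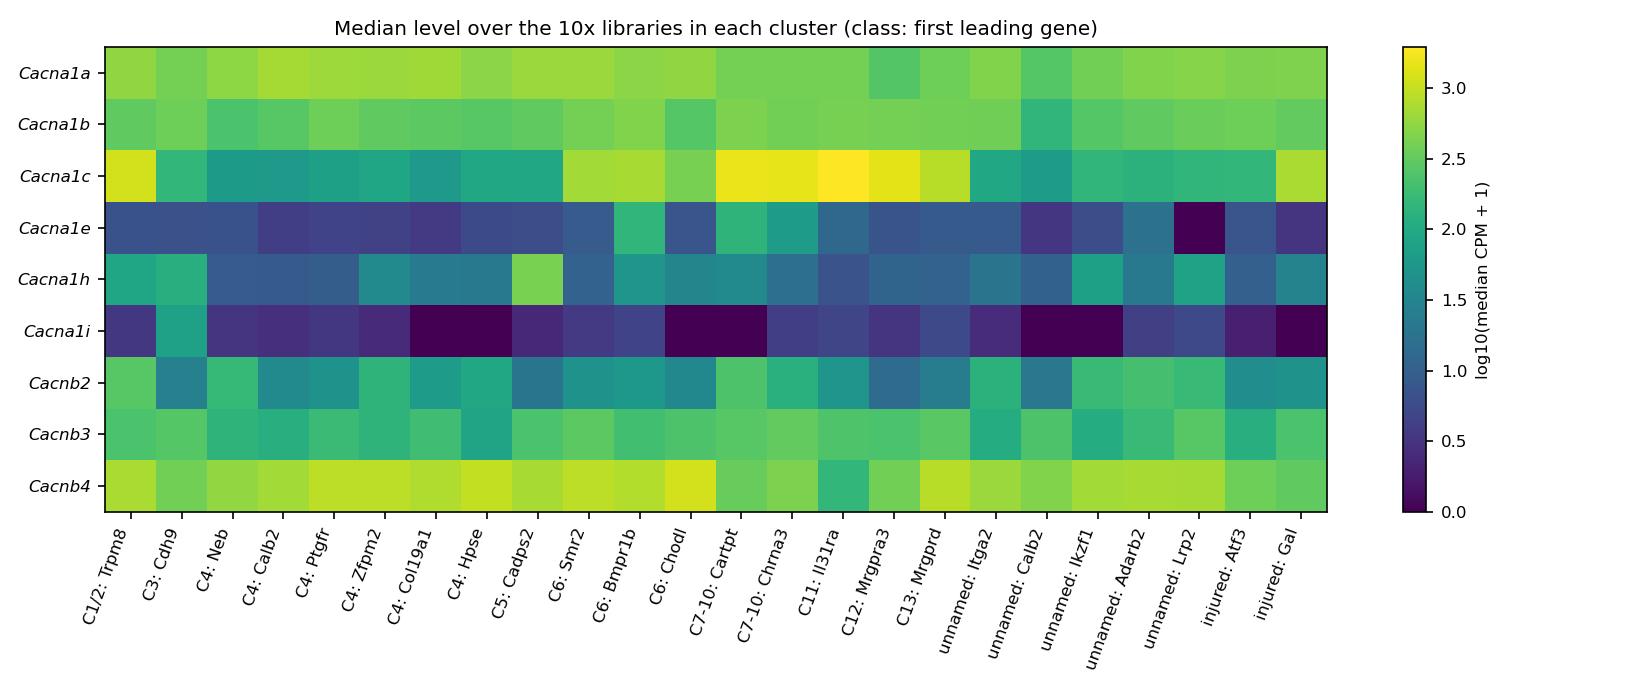
Median CPM of the 9 genes over the 7 10x libraries (color, on a scale of log10 of CPM plus 1) in each cluster (columns, labeled by class and first leading gene), including 5 unnamed and 2 injured clusters. Cacna1e was strong in the Cartpt, Chrna3 and Bmpr1b columns, Cacna1h in the Cadps2 column and Cacna1i in the Cdh9 column, and Cacna1b and Cacnb4 were present in every column.

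Cacna1c separated small from large diameter neurons. It averaged 1770.1 ± 487 CPM in C11-like, 1576 ± 358 in C7-10-like, 1430 ± 300 in C12-like, 1075 ± 242 in C1/2-like and 896 ± 228 in C13-like nuclei (SD, n = 7 each). C6-like nuclei were between these and the rest at 629 ± 141 CPM, and the lowest levels were in C3-like (139.8 ± 36.2), C5-like (87.9 ± 17.0) and C4-like nuclei (68.7 ± 22.9), 25.8-fold below C11-like nuclei. C3-like nuclei, grouped with the small diameter classes, were thus below the large diameter C6-like nuclei. Neighbors in this order from C12-like down to C3-like were higher in 7 of 7 libraries at each step. The largest edgeR differences were 1.85 in C11-like (SE 0.0656, adjusted p 6.66e-43) and -3.19 in C4-like nuclei (SE 0.0746, adjusted p 9.17e-58) on the log2 scale.

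The beta subunits differed from one another across classes. Cacnb2 was highest in C1/2-like nuclei, which express the cold-sensing channel Trpm8, at 248 ± 62.0 CPM, followed by C7-10-like at 199 ± 36.9 and C4-like at 98.4 ± 20.4, with C12-like lowest at 14.5 ± 7.59 (SD, n = 7). A UMI of Cacnb2 was present in 25.4 to 57.0% of C1/2-like and in 1.15 to 7.04% of C12-like nuclei. Its log2 differences were 2.57 in C1/2-like (SE 0.0785, edgeR adjusted p 4.24e-48), 2.13 in C7-10-like (SE 0.0808, adjusted p 1.18e-40) and -1.99 in C12-like nuclei (SE 0.253, adjusted p 2.51e-10). The C4-like class was also called higher (log2 1.08, SE 0.0747, adjusted p 8.53e-24), and within it the median over libraries was 159 CPM in the cluster led by Neb and 35.5 in the cluster led by Calb2.

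Cacnb4 was high in C13-like (887 ± 141 CPM), C6-like (874 ± 143), C1/2-like (742 ± 135), C4-like (738 ± 120) and C5-like nuclei (706 ± 147). It was lower in C3-like (417 ± 87.1), C12-like (403 ± 113) and C7-10-like nuclei (382 ± 54.0) and lowest in C11-like nuclei (158 ± 55.2), the class with the highest Cacna1c. The C11-like difference was -2.05 on the log2 scale (SE 0.0904, edgeR adjusted p 1.16e-35). Cacnb3 varied 2.05-fold over the classes, from 319.8 ± 126 CPM in C13-like, 316 ± 95.5 in C3-like and 315 ± 113 in C7-10-like nuclei to 156 ± 55.2 in C4-like nuclei, and only the C4-like class was called lower (log2 -0.81, SE 0.0526, edgeR adjusted p 1.43e-25).

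Cacna1a and Cacna1b, the pores of P/Q- and N-type channels, were well counted in every class. Cacna1a averaged 592 ± 121 CPM in C4-like, 582 ± 133 in C5-like, 562.1 ± 111 in C6-like and 538 ± 113 in C1/2-like nuclei, and 279.9 ± 73.3 in C12-like nuclei at the lower end, a range of 2.11-fold. Cacna1b was highest in C7-10-like nuclei at 432 ± 86.0 CPM, followed by C11-like at 407 ± 53.9 and C6-like at 404 ± 85.3. It was lowest in C4-like nuclei at 279.9 ± 57.6, a range of 1.54-fold. C6-like nuclei were called higher than the mean of the other classes for both genes. Over the 9 class means the correlation of Cacna1a with Cacna1b was -0.60, the lowest of all pairs of the set, and that of Cacna1b with Cacnb3 was 0.74, the highest. These coefficients describe 9 points that share the same libraries and carry no test.

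For each gene, neighbors in the order of mean levels were compared by an exact two-sided sign-flip permutation test on log2(CPM + 1) over the 7 10x libraries, 72 pairs in all. With 7 libraries the smallest p this test allows is 0.0156, reached by 20 pairs, and after adjustment over the 72 pairs the smallest value was 0.0563. No neighboring pair passed a threshold of 0.05, and none could at this smallest p unless more pairs reached it. The adjusted test therefore does not show how stable the order is. In the Cacna1i order, the pairs below C3-like nuclei followed the direction of the means in 2 to 5 of 7 libraries.

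Summed over the large and the small diameter classes, all 9 genes differed between the groups by the edgeR test (7 10x libraries, library as a block), where 30.2% of 13119 genes were called higher in large diameter nuclei and 29.1% lower. Cacna1a (log2 0.60, SE 0.0409, adjusted p 1.02e-10) and Cacnb4 (log2 0.38, SE 0.0398, adjusted p 5.80e-08) were the 2 genes higher in large diameter nuclei. Lower in large diameter nuclei were Cacna1i (5.78-fold), Cacna1c (3.64-fold), Cacna1e (1.69-fold), Cacnb2 (1.47-fold), Cacnb3 (1.41-fold), Cacna1b (1.14-fold) and Cacna1h (1.14-fold), with adjusted p from 1.78e-17 for Cacna1c to 0.0356 for Cacna1h. Large diameter nuclei had less Cacna1h in 6 of 7 libraries, and the scratch lesion library ran the other way (47.3 against 38.5 CPM). The call for Cacna1h ended without the 10x control or the day 2 library, and its log2 value changed sign at Leiden resolution 2 (0.00156) and without the 5% of nuclei with the most UMIs (0.0106). Large diameter Cacna1h rested on the C5-like class, which held 4.55 to 7.81% of large diameter UMIs in the 10x libraries.

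After IOT, injured nuclei carried less of most calcium channel genes than uninjured nuclei of the same ganglia. By edgeR's quasi-likelihood test over the 4 IOT days with the library as a block, 7 of the 9 genes fell (Cacna1c, Cacna1e, Cacna1h, Cacna1i, Cacnb2, Cacnb3 and Cacnb4), 1 rose (Cacna1b) and 1 did not pass (Cacna1a). Over all 12437 genes tested, 13.2% were called lower and 15.9% higher. The median log2 difference was -0.85 over the 9 genes and -0.02 over all genes. Injured nuclei made up 12.4, 12.6, 6.08 and 2.70% of nuclei on days 2, 7, 21 and 75, and 0.114% in the 10x control. These are summed counts, in which fewer nuclei expressing a gene and less RNA per nucleus cannot be told apart.

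**Figure D3:**
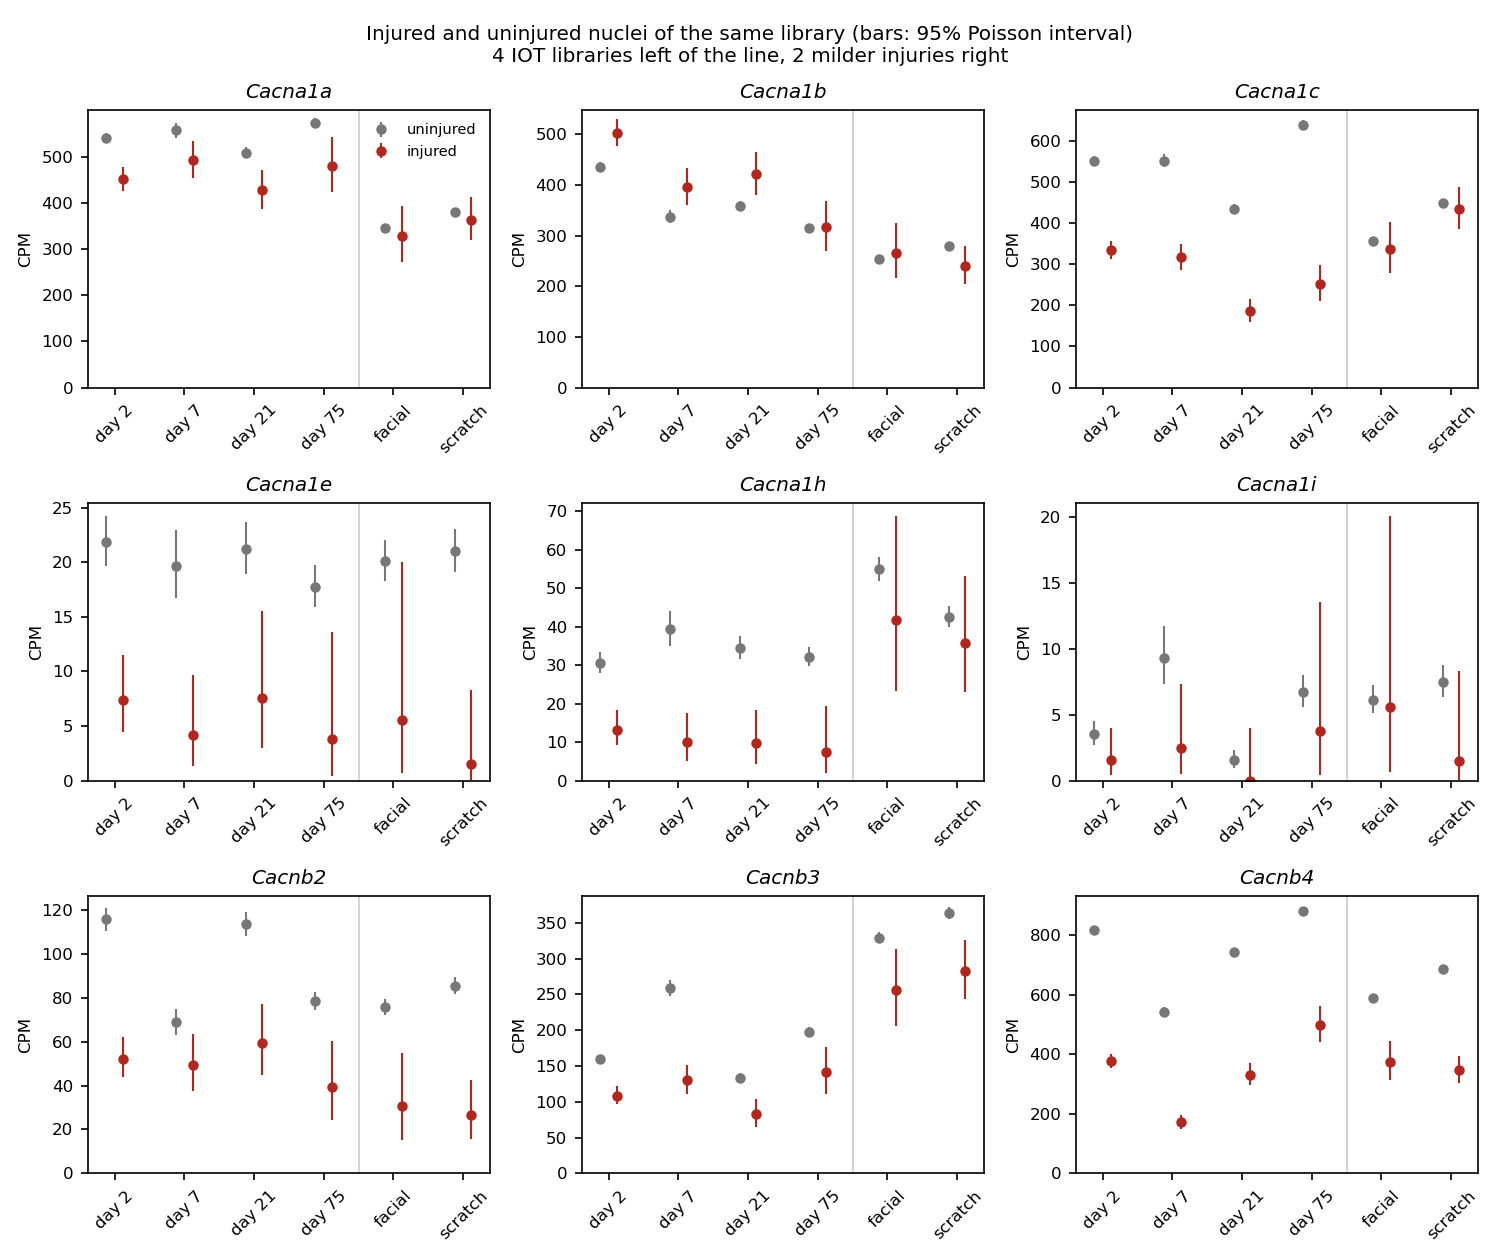
CPM of each gene in injured (red) and uninjured (grey) nuclei of the 4 IOT libraries in order of day and of the facial injury and scratch lesion libraries, with exact 95% Poisson intervals for counting error. In the IOT libraries the red and grey ranges were apart for Cacna1a, Cacna1c, Cacna1e, Cacna1h, Cacnb2 and Cacnb4, and red lay above grey in 4 of 4 for Cacna1b.

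The beta subunit Cacnb4 was at 378, 172, 332 and 499 CPM in injured nuclei on days 2, 7, 21 and 75, against 817, 543, 742 and 880.0 in uninjured nuclei. The ranges did not overlap, and in 4 of 4 libraries the injured value was the lower. The fold change was 2.07-fold lower (log2 -1.05, SE 0.0985, edgeR adjusted p 8.71e-11). A UMI of Cacnb4 was found in 72.8, 28.9, 60.6 and 83.7% of injured nuclei against 85.4, 59.7, 82.7 and 92.1% of uninjured nuclei on the same days.

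Cacnb2 fell 1.71-fold, from 116, 68.8, 113 and 78.3 CPM in uninjured nuclei on days 2, 7, 21 and 75 to 52.3, 49.1, 59.2 and 39.5 in injured nuclei (log2 -0.77, SE 0.125, edgeR adjusted p 7.11e-06). Every injured value was below every uninjured value. Cacnb3 fell 1.46-fold, from 159.9, 259, 134 and 198 CPM to 109, 129.9, 82.9 and 141 (log2 -0.55, SE 0.101, edgeR adjusted p 5.36e-05). For Cacnb3 the injured nuclei were lower in 4 of 4 libraries, but the ranges overlapped because the uninjured level itself varied between days. All 3 beta subunits therefore fell after IOT in the pooled injured nuclei. Of the 3, only Cacnb4 was called lower in I2-like than in small diameter nuclei. Over the IOT libraries, I2-like nuclei had 87.3 CPM of Cacnb2 and 200 of Cacnb3, against 118 and 234 in small diameter nuclei. The share of I2-like nuclei with a UMI was lower in 1 of 4 libraries for Cacnb2 and in 3 of 4 for Cacnb3.

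Among the T-type pores, Cacna1h fell 2.74-fold. It was at 13.2, 9.99, 9.69 and 7.53 CPM in injured nuclei on days 2, 7, 21 and 75, against 30.5, 39.3, 34.5 and 32.1 in uninjured nuclei, with no overlap (log2 -1.45, SE 0.189, edgeR adjusted p 1.27e-07). Cacna1i was at 1.55, 2.50, 0 and 3.77 CPM in injured nuclei against 3.52, 9.33, 1.54 and 6.72 in uninjured nuclei, a 2.47-fold fall that rested on 9 UMIs of 5242881 in injured nuclei (log2 -1.30, SE 0.476, edgeR adjusted p 0.0354). The call for Cacna1i ended with DESeq2 and without any 1 of days 2, 7 and 21.

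Among the Cav2 and L-type pores, Cacna1e fell 3.01-fold, from 21.8, 19.7, 21.2 and 17.8 CPM in uninjured nuclei to 7.36, 4.16, 7.54 and 3.77 in injured nuclei on days 2, 7, 21 and 75 (log2 -1.59, SE 0.243, edgeR adjusted p 2.46e-06). Cacna1c fell 1.81-fold, from 550.4, 551, 435 and 638 CPM to 333, 316, 186 and 252 (log2 -0.85, SE 0.108, edgeR adjusted p 7.28e-08). Neither gene had overlapping ranges. Cacna1b, the N-type pore, was the exception, at 503, 396, 421 and 316 CPM in injured nuclei against 435, 337, 358 and 314 in uninjured nuclei, 1.24-fold higher in the fit (log2 0.31, SE 0.0926, edgeR adjusted p 0.00882). Its ranges overlapped, and on day 75 the values differed little.

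The Cacna1b call depended on several settings. Its log2 value was 0.18 and no longer called without TMM scaling, which moved the median of all genes from -0.02 to -0.17 and the calls from 1976 higher and 1640 lower to 1391 and 2558. Without day 7 it was 0.25 and without the library block 0.32, neither of them called. Cacna1a was at 450.4, 492, 427 and 480.1 CPM in injured nuclei against 539.5, 556, 508 and 573 in uninjured nuclei, lower in 4 of 4 libraries with no overlap, but its fitted log2 difference of -0.10 (SE 0.0898, edgeR adjusted p 0.445) did not pass. Without the block, in which injured and uninjured nuclei of a library are not matched, the calls for Cacna1c, Cacna1i, Cacnb2 and Cacnb3 also ended. In another alternative, injured nuclei were defined as those with at least 3 of 10 injury markers detected. Under that rule the calls for Cacna1b, Cacnb3 and Cacnb4 ended, with log2 values of 0.03, 0.00 and -0.25. The rule took in 542 nuclei of the uninjured 10x control, against 5 by clustering, and 883 nuclei of IOT day 75, against 98. How far these added nuclei weakened the differences was not tested.

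Markers of other cell types were counted in both groups, with overlapping ranges of the summed level over the 10x libraries. Satellite glia markers (5 of 5 listed in the tables) were at 300.1 to 881 CPM in uninjured and 362 to 1345 in injured nuclei, and Schwann cell markers (5 of 5) at 469.6 to 1269.5 and 493 to 1322. Fibroblast markers (5 of 5) were at 72.2 to 179.8 and 58.1 to 199.6 CPM, and red cell markers (4 of 4) at 38.4 to 199 and 38.3 to 190.2. Vascular (5 of 5) and leukocyte markers (5 of 5) were at 9.66 to 35.5 and 8.23 to 15.9 CPM in uninjured nuclei and at 13.4 to 70.9 and 9.69 to 36.1 in injured nuclei, among which Tie1 was at 0 in 4 and Ptprc at 0 in 4 of the 6 injury libraries. Within the 6 injury libraries, the summed level was higher in injured than in uninjured nuclei in 6 for leukocyte markers, 5 for satellite glia, 5 for fibroblast, 4 for Schwann cell, 4 for vascular and 1 for red cell markers. Their part in the differences above was not tested. The injured nuclei were also made up differently from the uninjured: I2-like nuclei gave 10.6 to 17.9% of injured UMIs in the IOT libraries, whereas small diameter classes gave 26.1 to 36.8% of UMIs in uninjured nuclei. The class from which each injured nucleus came was not assigned, so the 2 injured states were next compared with the uninjured nuclei of like diameter markers.

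I1-like nuclei had less of 7 of the 9 genes than large diameter uninjured nuclei and more of 1, Cacna1b, where 14.2% of 12081 genes were called lower and 16.9% higher (edgeR, 4 IOT libraries, library as a block). The median log2 difference of the 9 genes was -0.70, against -0.02 over all genes. The 7 lower genes were the same as after IOT in the pooled comparison except that Cacna1a took the place of Cacna1i. I2-like nuclei had less of 3 genes than small diameter uninjured nuclei, Cacna1e, Cacna1i and Cacnb4, and more of none, with 5.8% of genes called lower and 4.75% higher. I2-like nuclei were few, 123, 104, 33 and 10 on days 2, 7, 21 and 75, against 447, 405, 213 and 88 I1-like nuclei.

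Cacnb4 and Cacna1e were lower in both states. In I1-like nuclei Cacnb4 was at 383, 185, 346 and 484 CPM on days 2, 7, 21 and 75 against 896, 605, 816 and 939.7 in large diameter nuclei (log2 -1.16, SE 0.123, edgeR adjusted p 4.32e-10). In I2-like nuclei it was at 353, 112, 213 and 626 CPM against 679.9, 469, 622 and 792 in small diameter nuclei (log2 -1.24, SE 0.160, edgeR adjusted p 1.54e-07). The I2-like value of day 75, from 10 nuclei, overlapped the small diameter range.

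Cacna1e was at 8.46, 3.04, 8.43 and 4.22 CPM in I1-like nuclei against 16.4, 11.97, 18.9 and 18.4 in large diameter nuclei (log2 -1.22, SE 0.301, edgeR adjusted p 0.00144). In I2-like nuclei 3 UMIs of Cacna1e were counted among 824389, against 30.4 CPM in small diameter nuclei. That is 8.36-fold lower, with an exact interval from counting error of 2.84 to 40.7, and it was called (edgeR adjusted p 6.45e-04) except without day 2. Among the uninjured classes Cacna1e averaged 39.3 CPM in C6-like, 5.75 in C5-like and 4.56 in C4-like nuclei, and 111 in C7-10-like nuclei. The shares of former C6-like nuclei among I1-like nuclei and of former C7-10-like nuclei among I2-like nuclei were not tested. Cacna1i was not counted in I2-like nuclei at all, 0 UMIs of 824389 against 11.8 CPM in small diameter nuclei. With 3 counts over the group taken as the floor that is 3.26-fold lower, and the exact counting interval began at 2.62-fold. The difference was called (edgeR adjusted p 0.00767). That call ended without day 7, and without day 2 the gene no longer passed the filter on low counts, so that Cacnb4 was the 1 member called. The C3-like neurons that hold Cacna1i are among the small diameter classes, and whether they contributed to the I2-like nuclei was not tested.

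**Figure D4:**
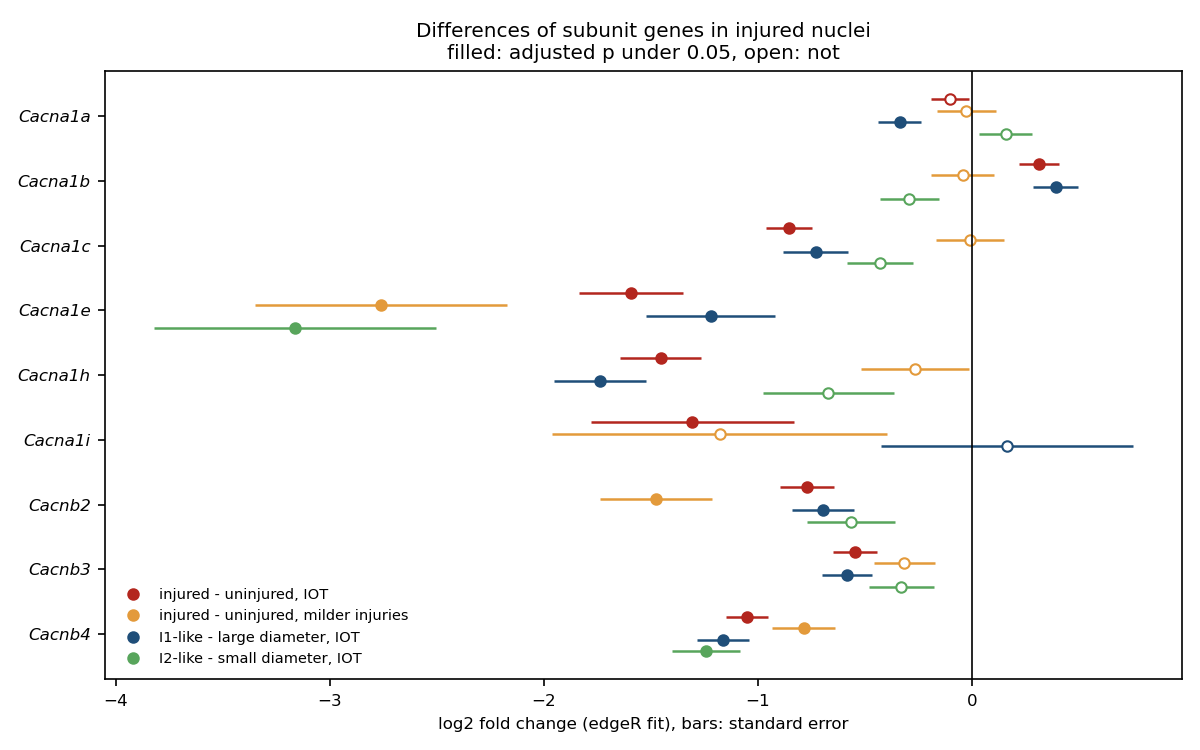
Log2 differences (horizontal axis, error bars ± 1 SE) of the 9 genes between injured and uninjured nuclei after IOT, the same after the milder injuries, I1-like and large diameter nuclei after IOT, and I2-like and small diameter nuclei after IOT. Filled points passed an edgeR adjusted p of 0.05, and the I2-like point of Cacna1i is left out because I2-like nuclei had 0 UMIs. Cacna1e and Cacnb4 were filled and negative in all 4 comparisons.

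The level of the L-type pore Cacna1c differed between the injured states. I1-like nuclei had 196, 220.1, 90.3 and 148 CPM on days 2, 7, 21 and 75 against 332, 265, 241 and 385 in large diameter nuclei, with no overlap (log2 -0.73, SE 0.152, edgeR adjusted p 1.92e-04). Of the large diameter classes, C6-like nuclei averaged 629 CPM, C5-like 87.9 and C4-like 68.7. C6-like nuclei gave 34.4 to 42.2% of large diameter UMIs in the IOT libraries. The share of former C6-like nuclei among I1-like nuclei was not tested. I2-like nuclei had 979, 758, 996 and 1114 CPM against 1250.2, 1076, 1020.2 and 1306 in small diameter nuclei, lower in 4 of 4 libraries but not called (log2 -0.43, edgeR adjusted p 0.0692). Cacna1c was 4.62-fold lower in I1-like than in I2-like nuclei (log2 -2.21, SE 0.173, edgeR adjusted p 9.39e-13), a gap of the same direction as that between uninjured large and small diameter nuclei (log2 -1.86).

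The effect of injury on Cacna1b differed between the states by 0.68 on the log2 scale (SE 0.172, edgeR adjusted p 0.0194), where 1.65% of genes were called higher and 0.613% lower in a contrast added after the data were seen. It was no longer called without TMM scaling (0.47) or without day 2 (0.71), day 7 (0.58) or day 21 (0.73). In I1-like nuclei it was at 522, 414, 419 and 321 CPM on days 2, 7, 21 and 75, against 428, 315, 347 and 304 in large diameter nuclei, higher in 4 of 4 libraries (log2 0.39, SE 0.106, edgeR adjusted p 0.00365). In I2-like nuclei it was at 414, 312, 437 and 278 CPM against 477, 385, 408 and 361 in small diameter nuclei, lower in 3 of 4 (log2 -0.29, edgeR adjusted p 0.198). Cacna1a showed values in the opposite arrangement, 440.2, 483, 425 and 465 CPM in I1-like against 605, 658, 573 and 656 in large diameter nuclei (log2 -0.34, SE 0.101, edgeR adjusted p 0.00866), and 498, 535, 447 and 609 in I2-like against 425, 441, 399.8 and 454 in small diameter nuclei (log2 0.16, adjusted p 0.505). The I1-like call for Cacna1a ended without day 21 (-0.30) or day 75 (-0.28).

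Of the other genes in I1-like nuclei, Cacna1h was at 9.87, 7.10, 8.43 and 6.33 CPM against 27.4, 36.8, 32.1 and 32.6 in large diameter nuclei (log2 -1.74, SE 0.214, edgeR adjusted p 1.58e-08). Large diameter Cacna1h belongs mainly to C5-like nuclei, and the share of former C5-like nuclei among I1-like nuclei was not tested. Cacnb3 was at 90.7, 109, 75.9 and 129 CPM against 145, 199, 118 and 192 (log2 -0.58, SE 0.118, edgeR adjusted p 1.21e-04), and Cacnb2 at 42.3, 49.7, 51.8 and 33.8 against 95.1, 51.8, 92.7 and 67.7 (log2 -0.70, SE 0.144, adjusted p 1.69e-04). Cacnb2 was no longer called without day 2, at -0.47. Between the states themselves, 5.9% of genes were higher and 1.95% lower in I1-like than in I2-like nuclei, and of the 9 genes Cacna1b was higher (log2 0.48, adjusted p 0.0228) and Cacna1c, Cacna1h (-1.34, 0.0392) and Cacnb3 (-0.78, 0.00187) lower. Without day 2 only Cacna1c of these was called, without day 7 the calls for Cacna1b and Cacna1h ended, and without day 21 that for Cacna1h.

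In the milder injuries injured nuclei were 2.73% of nuclei with scratch lesions and 1.59% with facial injury. Cacna1e, Cacnb2 and Cacnb4 fell and no gene rose, where 3.38% of all genes were called lower and 4.47% higher (edgeR, the same fit). The median of the 9 genes was -0.31 on the log2 scale against -0.03 over all genes. The remaining 6 genes did not pass.

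Cacnb4 was at 347 CPM in injured nuclei with scratch lesions and 375 with facial injury, against 687 and 589.9 in uninjured nuclei (log2 -0.79, SE 0.148, edgeR adjusted p 3.01e-04). Cacnb2 was at 26.8 and 30.6 CPM against 85.3 and 75.6 (log2 -1.48, SE 0.260, edgeR adjusted p 1.29e-04). For both genes the injured values lay below all uninjured values of the 6 injury libraries, as they did after IOT. Cacna1e was represented by 3 UMIs of 1031169 in injured nuclei against 20.6 CPM in uninjured nuclei, 7.07-fold lower with an exact counting interval of 2.41 to 34.4 (edgeR adjusted p 0.00142). Without the scratch lesion library none of the 3 genes was called, at log2 -0.73, -1.39 and -1.93 in the order given here, when the lone facial injury library was assumed to vary like the others.

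The pores Cacna1a, Cacna1b and Cacna1c gave log2 differences near 0 in the milder injuries when the injured states were pooled, and none passed. Cacna1c was at 435 and 336 CPM in injured nuclei with scratch lesions and facial injury, against 447 and 355 in uninjured nuclei (log2 -0.01, edgeR adjusted p 0.988). Cacna1a was at 363 and 328 against 381 and 346 (log2 -0.02, adjusted p 0.957) and Cacna1b at 239.8 and 267 against 280.4 and 254 (log2 -0.04, adjusted p 0.923). Cacna1h was at 35.8 and 41.7 CPM against 42.6 and 54.9 (log2 -0.26, adjusted p 0.636), Cacnb3 at 283 and 256 against 364 and 329 (log2 -0.31, adjusted p 0.198), and Cacna1i at 1.49 and 5.56 against 7.49 and 6.10 (log2 -1.18, adjusted p 0.447). The injured nuclei of these libraries were mixed differently from those after IOT, with I2-like nuclei giving 60.2 and 46.4% of injured UMIs. Within each state Cacna1c was lower than in uninjured nuclei of like diameter in 2 of 2 libraries. Over both libraries it was at 126 CPM in I1-like against 217 in large diameter nuclei. In I2-like nuclei it was at 622 CPM, against 765 in small diameter nuclei. Neither difference was called in the fits by state described below.

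The difference between the IOT effect and the milder injury effect was itself tested in the same fit. Only Cacna1c passed, with an effect 0.84 lower on the log2 scale after IOT (SE 0.193, edgeR adjusted p 0.0192), where 0.362% of genes were called lower and 0.539% higher. Cacna1h had a difference of -1.19 that did not pass (SE 0.337, adjusted p 0.0906). The Cacna1c difference was no longer called without day 21, day 75, the facial injury or the scratch lesion library, without the library block (-0.84, SE 0.436), or with injured nuclei defined by 3 of 10 markers (-0.36, SE 0.138, edgeR adjusted p 0.892), where edgeR called 0 of 13280 genes and 653 had an unadjusted p under 0.05. The alternatives without the block and with the marker rule were added to this contrast after the data were seen. The IOT libraries span days 2 to 75 and the facial injury is of day 2, so the type of injury and the time after it cannot be told apart in this contrast. When the states were kept apart, in fits added after the data were seen, the difference of Cacna1c was 0.06 (SE 0.322, edgeR adjusted p 0.980) for I1-like against large diameter nuclei and -0.09 (SE 0.241, adjusted p 0.968) for I2-like against small diameter nuclei, and none of the 9 genes passed in either. The backgrounds of these fits were 0.0837% of genes higher and 0.159% lower for the I1-like state and 0.1% and 0.259% for the I2-like state.

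In the same added fits, the milder injuries left Cacnb4 as the single call in I1-like nuclei, at 411 CPM with scratch lesions and 358 with facial injury against 773 and 633 in large diameter nuclei (log2 -0.83, SE 0.190, edgeR adjusted p 0.00337). In that contrast 1.48% of genes were called lower and 2.63% higher. In I2-like nuclei Cacnb2 was at 19.8 and 29.9 CPM against 102 and 86.0 in small diameter nuclei (log2 -2.04, edgeR adjusted p 7.09e-05) and Cacnb4 at 305 and 395 against 588 and 513 (log2 -0.69, adjusted p 0.0197). Cacna1a was higher there, at 389 and 431 CPM against 285 and 276 (log2 0.54, SE 0.163, adjusted p 0.0378). Cacna1e had 1 UMI of 570878 in I2-like nuclei against 32.1 CPM, 18.3-fold lower with an exact counting interval of 3.27 to 725. In I2-like nuclei of the milder injuries 2.37% of genes were called lower and 3.16% higher.

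Other genes of the calcium channel pathway, 44 in all of which 36 passed the filter, changed in both directions after IOT, with 13 lower and 7 higher (edgeR, all genes adjusted together, against 13.2% of all genes lower and 15.9% higher). Among the other subunits, Cacna2d1, an alpha2delta subunit bound by gabapentin, rose 7.84-fold (log2 2.97, SE 0.107, edgeR adjusted p 2.52e-22). Cacna2d3 (0.35) and Cacna2d4 (0.72) also rose, while the alpha2delta subunit Cacna2d2 (-1.74), Cacng2 (-0.89) and Cacng5 (-0.67) fell. Of the 12 other subunits tested, 3 thus rose and 3 fell. Of the 6 channel regulators tested, Stac rose (0.45) and Rem2 (-1.37) and Cbarp (-0.62) fell. Of the 11 genes of the release machinery at calcium channels, Erc1 (0.41) and Erc2 (0.90) rose and Rims2 (-0.35), Snap25 (-0.52), Syt2 (-0.53) and Unc13a (-0.31) fell. Of the 7 calcium sensors, the kinase subunit Camk2d rose (0.68), and Calm2 (-0.31), Camk2a (-1.81) and Camk2b (-1.23) were among those that fell. The median over the 36 genes was -0.15, against -0.02 over all genes and -0.85 over the 9 pore and beta subunits. After the milder injuries 4 of the 36 rose, including Cacna2d1 (2.17) and Stac (1.14), and 4 fell, including Cacna2d2 (-1.17) and Camk2b (-1.05), against 4.47% of all genes higher and 3.38% lower.

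The genes whose class pattern was most like each member were taken as the 2 with the highest Pearson correlation of log2(CPM + 1) over the means of the 9 classes, among 5857 genes. They are given as a description of 9 points and with no test. For the Cav2 pores they were Ell2 (0.98) and Pid1 (0.98) for Cacna1a, Mtpn (0.96) and Stx1a (0.96) for Cacna1b, and Kit (0.99) and Abcc4 (0.96) for Cacna1e. For the L- and T-type pores they were Gcnt2 (0.98) and Actr1a (0.98) for Cacna1c, Arhgap20 (0.96) for Cacna1h, and Fam122b (0.96) and Cdh9 (0.95) for Cacna1i. For the beta subunits they were Dmd (0.95) and Vstm2l (0.94) for Cacnb2, Dusp3 (0.91) for Cacnb3, and Clybl (0.95) and Syp (0.94) for Cacnb4. Cdh9 was among the markers used to name the C3-like class, and Stx1a belongs to the release machinery listed above.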

How the data were processed

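Single-nucleus RNA sequencing of mouse trigeminal ganglia was analysed from 8 tables of UMI counts per gene and nucleus, which the authors deposited. The tables hold whole, unnormalized counts for intron-inclusive mm10 genes, with non-neuronal clusters already removed by the authors, and all of their value columns were mapped to samples. Per the submitters' processing notes, 10x reads were mapped with Cell Ranger 2.1.0 after demultiplexing with bcl2fastq 2.17. STAR 2.5.3a and Seurat 2 are listed there too, with no role stated for the Drop-seq reads. The members, gene lists and tests were chosen with earlier results of these data known, so no pattern here is independent support for those results.

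Nuclei were clustered (Python 3.11.15, scikit-learn 1.9.0, Leiden by leidenalg 0.10.2 at resolution 1) on 2000 variable genes. The members, marker genes and pathway genes were withheld, and no gene that entered the clustering was tested. Clusters were named where the mean marker z reached 0.3 with a lead of 0.15 over the next class and at least 3 markers raised. These limits were set after marker scores had been seen, and 4184 nuclei stayed unnamed. No doublet caller was run, and an alternative left out the 5% of nuclei with the most UMIs.

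Counts were summed per library and class or state. They were tested with edgeR 4.0.16 (quasi-likelihood F-test, TMM scaling, filterByExpr, library as a block, Benjamini-Hochberg adjustment over all genes tested, threshold 0.05) in R 4.3.3. Sums of under 20 nuclei were left out of the class fits. CPM is the gene's share of the UMIs of the summed nuclei, so that the depth of 7735811 to 22003842 UMIs per table sets its precision. Poisson intervals (exact, 95%), shares and the ratios with exact intervals cover counting error only. Thinned shares are expectations at 1000 UMIs per nucleus, and leave out 41 nuclei of the Drop-seq control, 32 of IOT day 7, 84 of scratch lesions and 366 of facial injury that were shallower. Of the related genes, those that passed the test in the IOT comparison are named, and like-patterned genes are the 2 with the highest correlation among genes reaching 50 CPM in their highest class. A few genes that meet these rules are not reported here. Alternatives were DESeq2 1.42.0, no TMM scaling, no filter, no library block, Leiden resolutions 0.6 and 2, injured nuclei by at least 3 of 10 markers, and each library left out in turn. The marker rule also took in 542 nuclei of the uninjured 10x control. The Drop-seq control entered no test between groups. Gene spans are from GENCODE vM21. The edgeR fit of injured against uninjured nuclei after IOT was tested on simulated counts. In these, gene levels did not differ between libraries beyond the changes put in. The other fits were not tested in this way.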

Additional observations from a re-analysis of the deposited data

Results flagged for a closer look

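For Cacna1c, the L-type pore, the effects of IOT and of the milder injuries differed in the pooled injured nuclei. The difference of the log2 effects was -0.84 (SE 0.193, edgeR adjusted p 0.0192), with a lower CPM in injured nuclei in 4 of 4 IOT libraries and in 2 of 2 milder injury libraries. Scaling and filter alternatives kept the call, and leaving out day 21, day 75, scratch lesions or facial injury ended it, as did the fit without the library block and the 3 of 10 marker rule (-0.36, edgeR adjusted p 0.892). Within the states the difference was 0.06 for I1-like (edgeR adjusted p 0.980) and -0.09 for I2-like nuclei (adjusted p 0.968).

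The change of Cacna1b, the N-type pore, differed between the injured states after IOT. The log2 effect in I1-like nuclei was 0.68 above that in I2-like nuclei (SE 0.172, edgeR adjusted p 0.0194), with I1-like nuclei above large diameter nuclei in 4 of 4 libraries and I2-like nuclei below small diameter nuclei in 3 of 4. This contrast was chosen after the data were seen, and 1.65% of genes were called higher and 0.613% lower in it. It was no longer called without TMM scaling (0.47) or without day 2 (0.71), day 7 (0.58) or day 21 (0.73). The same contrast was -0.49 for Cacna1a (SE 0.159, adjusted p 0.0975).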

How the results depend on the processing

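Of the values recomputed under an alternative, 1608 kept their direction and their side of the threshold, 51 lost a call and 20 gained one. A further 36 changed sign with no call under either setting, and 4 changed sign with a call under at least 1 of them. These 4 sign changes with a call were Cacnb3 after IOT with injured nuclei defined by 3 of 10 markers (0.00211), Cacna1c in the difference of IOT and milder effects within I1-like nuclei (0.0587), and Cacna1h between large and small diameter nuclei at Leiden resolution 2 (0.00156) and without the 5% of nuclei with the most UMIs (0.0106). The causes were not tested. After IOT the calls over all genes numbered 3616, but 766 without the library block and 1305 by the 3 of 10 marker rule, with 3 and 5 of the 9 members called. After the milder injuries they numbered 976, but 75 without the block (1 member), 323 by the marker rule, and 157 (without scratch lesions, 0 members) to 1162 (without day 7) with a library left out, 523 of them without facial injury. For the difference of these effects, 112 genes were called, but 239 without the filter, 1 without the block, 0 by the marker rule in edgeR (653 at an unadjusted p under 0.05, 0 members in either), 29 within I1-like and 43 within I2-like nuclei (0 members in either), and 6 (without scratch lesions) to 178 (without day 2) with a library left out, 29 of them without facial injury, with 0 to 2 members. For the states, leaving out a library gave 2415 (without day 2) to 3661 calls in I1-like nuclei, 626 (without day 2, 1 member) to 1208 in I2-like nuclei (5 members without the filter), 474 (without day 7) to 941 between the states (540 and 1 member without day 2), and 126 (without day 7) to 263 for the difference of their effects (168 without day 21), in which 0 members were called without day 2, 7 or 21 and 2 with DESeq2 or without the filter. Without TMM scaling, 1506 genes were higher and 2682 lower in I1-like than in large diameter nuclei (2036 and 1718 with it), 353 and 559 between the states (713 and 235), 108 and 185 for the difference of their effects (199 and 74), 40 and 53 for IOT minus milder injuries (67 and 45), 2748 and 1249 in C7-10-like (1945 and 1749) and 1746 and 827 in C11-like nuclei (1172 and 1216). At Leiden resolution 0.6 the states merged, so no state comparison was made there. Cacna1e, Cacna1h and Cacna1i were low counts in injured nuclei, where depth limits what could be seen.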

Other observations

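The 10x and Drop-seq controls, both of uninjured C57BL mice, differed most for Cacna1c, with 615 CPM and 56.5 CPM in uninjured nuclei, a 10.9-fold difference. For the other 8 genes the 10x value was 1.17- to 2.89-fold the Drop-seq value. The class with the highest mean was the same on both platforms for Cacna1e, Cacna1h, Cacna1i and Cacnb2, and over the 9 classes the correlation between platforms ran from 0.66 (Cacna1e) to 0.96 (Cacna1a) as a description with no test.

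Cacna1i, Cacna1h and Cacna1e were among the 10 leading genes of the C3-like cluster, the C5-like cluster, and the Cartpt and Bmpr1b clusters, although they had been withheld from clustering. In the 10x control 5 nuclei fell in the injured clusters, with 3 in the I1-like and 2 in the I2-like cluster, and their values were not compared.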
